A study of Mus musculus with 14 samples.

Results

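The mitosis and cytokinesis genes are 40 named genes whose products start mitosis, build the spindle, hold and separate the chromosomes and divide the cell. They were taken by name from a table of raw counts for 52636 Ensembl gene identifiers in 14 libraries, matched to mouse symbols through a gene annotation. All 40 were found, and all 40 passed the filter on low counts, which left 11994 genes. They were treated in 8 groups by role: 11 cyclins and kinases, 5 kinetochore and checkpoint genes, 3 partners of Aurkb in the chromosomal passenger complex, 7 motors, 4 cytokinesis genes, 3 anaphase genes, 2 spindle assembly genes and 5 genes of chromosome structure and mitotic regulation.

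The RNA came from leukemic progenitors out of mice carrying I1DN, an acute myeloid leukemia model with mutant IDH1, sorted as cKit+ and CD11b-. The 5 groups were sequenced by QuantSeq, which reads each transcript near its 3′ end, and each library was taken as 1 mouse. Vehicle was given for 5 days (3 libraries) or 14 days (2 libraries), and AG120 (ivosidenib, an inhibitor of mutant IDH1) for 5 days (3 libraries) or 14 days (2 libraries). The relapse group (4 libraries) had received AG120 for 28 days and was followed until the disease returned. All 5 groups share the transplanted leukemia and the sort gate. The labels spell out neither the alleles behind the name I1DN nor the strain and age of the hosts. The study asked how inhibition of mutant IDH1 affects the cycling of leukemia stem cells. These are bulk libraries, so more cells in mitosis and more mRNA per dividing cell cannot be told apart.

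Cyclin B with Cdk1 drives entry into mitosis, and the Polo and Aurora kinases mature the centrosomes and the spindle. Kinetochores attach chromosomes to microtubules, and a checkpoint built on Bub1b, Mad2l1 and Ttk holds back Cdc20 until all are attached, after which separase cuts the ties between sister chromatids. The central spindle then recruits a contractile ring that divides the cell. Most of these genes are transcribed as cells approach mitosis. Their promoters are known for CCAAT boxes, bound by the factor NF-Y, near a CHR element, through which the DREAM complex represses them in resting cells and MYBL2 and FOXM1 activate them in cycling cells.

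These promoter elements are shown because they are the sequence feature the genes are known to share and because the choice of members did not use them. Promoter windows from RefSeq (GRCm38.p6), 250 bases before to 50 bases after the annotated start, were matched for 33 of the 40 members, in 35 windows. Ccna2, Aurkb, Incenp, Kif20a, Tpx2, Pimreg and Cdca2 had no entry. The bases just after the start were found in an annotated transcript of the gene for 25 of the 35 windows (71.4%). Of the genes printed below, Hmmr, Ccnb2 and Kif23 had no such match and the others had. Distances are less certain where the match is missing. The CHR core TTTGAA was searched on both strands and was in 27 of the 35 windows (77.1%), against 5878 of all 32851 windows (17.9%). CCAAT, also on both strands, was in 27 of 35 (77.1%) against 37.4% of all windows. Both were in 23 of 35 (65.7%) against 6.95%. A TTTGAA match overlapped a CCAAT match in 1 of the member windows. A match is a string of letters and not a shown binding site.

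The 8 stretches below run from 80 bases before the start to 20 bases from it on, 5′ to 3′ on the gene's strand. Capitals mark matches to the CHR core, which reads TTCAAA where it lies on the other strand. They also mark CCAAT boxes, which read ATTGG where they lie on the other strand. The first 5 belong to genes that were called higher with AG120 on at least one day, and the last 3 to genes called on neither day.
Hmmr (chr11:40733418-40733517, minus strand): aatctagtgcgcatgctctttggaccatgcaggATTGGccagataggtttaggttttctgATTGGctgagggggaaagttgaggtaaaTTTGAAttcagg
Ccnb2 (chr9:70421535-70421634, minus strand): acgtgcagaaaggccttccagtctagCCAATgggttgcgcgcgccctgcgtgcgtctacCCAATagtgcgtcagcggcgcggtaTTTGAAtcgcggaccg
Ttk (chr9:83834609-83834708, plus strand): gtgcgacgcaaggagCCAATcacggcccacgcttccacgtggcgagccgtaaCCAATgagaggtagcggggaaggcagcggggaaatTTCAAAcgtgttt
Cdc20 (chr4:118437324-118437423, minus strand): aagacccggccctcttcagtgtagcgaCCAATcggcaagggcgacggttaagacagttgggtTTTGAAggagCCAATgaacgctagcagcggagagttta
Espl1 (chr15:102296213-102296312, plus strand): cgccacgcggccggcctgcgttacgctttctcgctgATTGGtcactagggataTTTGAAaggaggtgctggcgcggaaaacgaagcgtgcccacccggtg
Kif23 (chr9:61946780-61946879, minus strand): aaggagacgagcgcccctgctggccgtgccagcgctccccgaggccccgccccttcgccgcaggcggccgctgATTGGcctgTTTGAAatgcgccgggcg
Racgap1 (chr15:99651637-99651736, minus strand): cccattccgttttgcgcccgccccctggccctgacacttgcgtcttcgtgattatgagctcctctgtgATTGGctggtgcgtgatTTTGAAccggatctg
Cenpf (chr1:189688067-189688166, minus strand): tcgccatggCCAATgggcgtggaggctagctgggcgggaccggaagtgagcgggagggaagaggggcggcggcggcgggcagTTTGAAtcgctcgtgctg

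Over the members the TTTGAA matches lay close to the annotated start, with a median distance of 4.5 bases after it (range -179 to 40, 32 matches). The 56 CCAAT matches lay further upstream, with a median of -61.5 bases (range -227 to 18). Both elements were frequent among the members called higher with AG120 and among the rest: TTTGAA was in 12 of the 17 members called higher on either day that had a window and in 13 of the other 16, and CCAAT in 15 of 17 and 10 of 16. These counts are a description with no test.

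**Figure D1:**
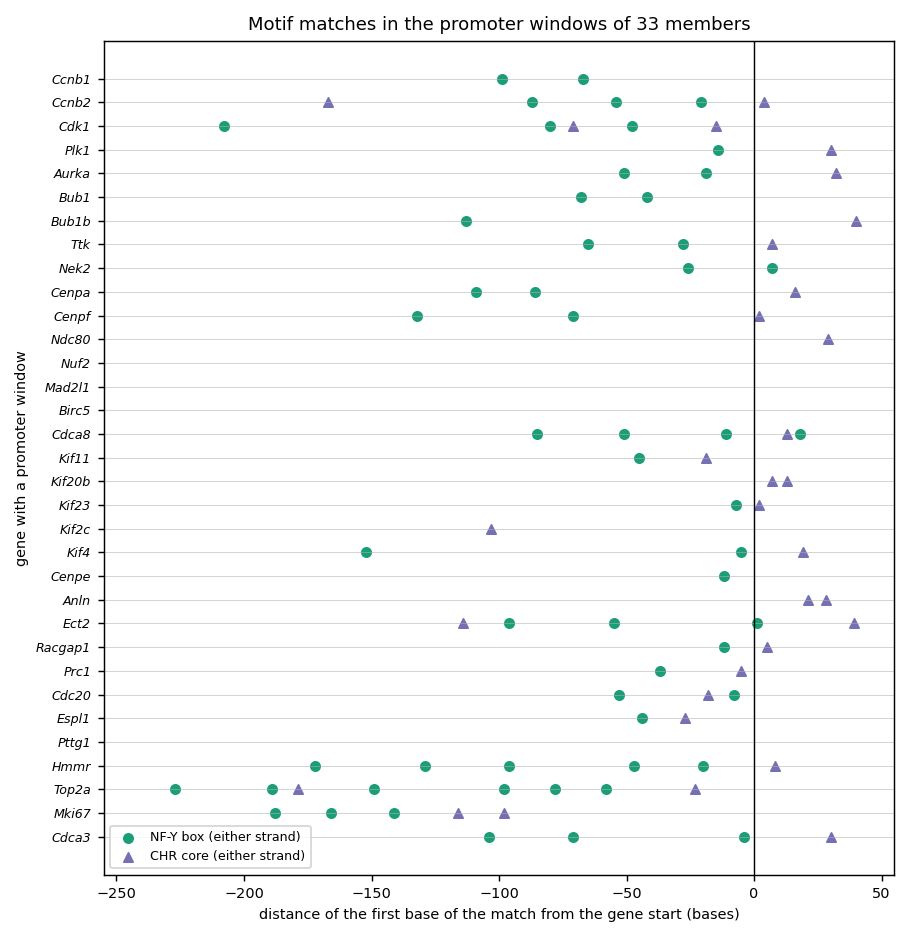
Position of each CCAAT match (circles, NF-Y box) and TTTGAA match (triangles, CHR core) in the promoter windows of the 33 members with an entry, 1 window per gene, with the distance from the annotated start in bases on the x axis. Most triangles sit near the start (median 4.5) and the circles to the left of them (median -61.5).

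Deposited counts per library ran from 4995738 to 8691708, of which 5 ribosomal RNA gene models held 50.9% to 74.8%, so 1259982 to 3358874 counts were left for all other genes. The highest ribosomal share, 74.8%, was in AG120 day 14 replicate 1. On day 5 library make-up moved with treatment: the ribosomal share was 50.9% to 59.8% with vehicle and 62.5% to 65.3% with AG120, and 19149 to 19770 against 17151 to 18095 genes had a count, without overlap. With the ribosomal RNA genes left out 17 members were called on day 5, against 18 with them, and 4678 of all genes, against 4730. That fit only drops the 5 gene models, so it cannot say what part library make-up had. Neither that part nor the part of the number of genes detected was tested. Levels below are CPM (counts per 1e6 counts) on library sizes scaled by TMM, and changes are log2 fold changes ± standard error from edgeR's quasi-likelihood fit over all 14 libraries. Called means an adjusted p under 0.05, by the Benjamini-Hochberg method over the 11994 genes. Replicates differed by 1.87 to 17.6 times the counting noise (chi-square per degree of freedom), so no library was a copy of another. The relapse libraries were the most unlike each other: replicates 1 and 4 differed by 3.95, and the other relapse pairs by 6.46 to 17.6. Kit, the sort marker, was at 33.5 to 37.8 CPM in vehicle day 5 and at 11.6 CPM in both AG120 day 14 libraries. Itgam, which encodes CD11b, was present at 10.6 to 15.5 CPM in vehicle day 5 although the gate was CD11b-.

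After 5 days of AG120, 17 of the 40 genes were higher than with vehicle and 1, Pimreg, was lower. Over all genes 20.1% were called higher and 19.3% lower, 39.4% in either direction. The members' share of higher calls was 42.5%. The median change of the 40 genes was 0.42 on the log2 scale, against -0.00 for all genes tested. Library by library, the 3 treated samples lay above the 3 vehicle samples for 30 of 40 members (30.1% of all genes) and below them for 1 (29.8%). Leaving out 1 library at a time left 13 to 16 calls (3716 to 3873 of all genes, against 4730). A fit of the day 5 libraries alone gave 29 (6186 of all genes). Of the 18 calls, 11 held under every alternative and without every single library; Ccnb1, Aurka, Nek2, Cenpa, Mad2l1, Anln and Cdc20 did not.

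After 14 days the count was 16 higher and again 1 lower, against 16.8% higher and 17.9% lower over all genes, 34.7% in either direction. The median change of the members was 0.47, against -0.01 for all genes. Both treated libraries lay above both vehicle libraries for 33 members and below them for 3 (34.2% and 36.3% of all genes). With 2 libraries per group the count rested on every one of them: it was 10 without vehicle replicate 1, 9 without vehicle replicate 2, 10 without AG120 replicate 1 and 10 without AG120 replicate 2. Calls over all genes fell as well, from 4159 to 2925, 2752, 3003 and 2797 in the same order. Anln, Hmmr, Incenp, Mki67, Plk1 and Pimreg were called in each of these fits and under every other alternative, and each of the other 11 calls was lost without at least 1 of the 4 libraries. The 12 genes called higher on both days were Ccna2, Plk1, Aurka, Bub1b, Ttk, Nek2, Cenpa, Kif20a, Anln, Cdc20, Hmmr and Mki67.

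**Figure D2:**
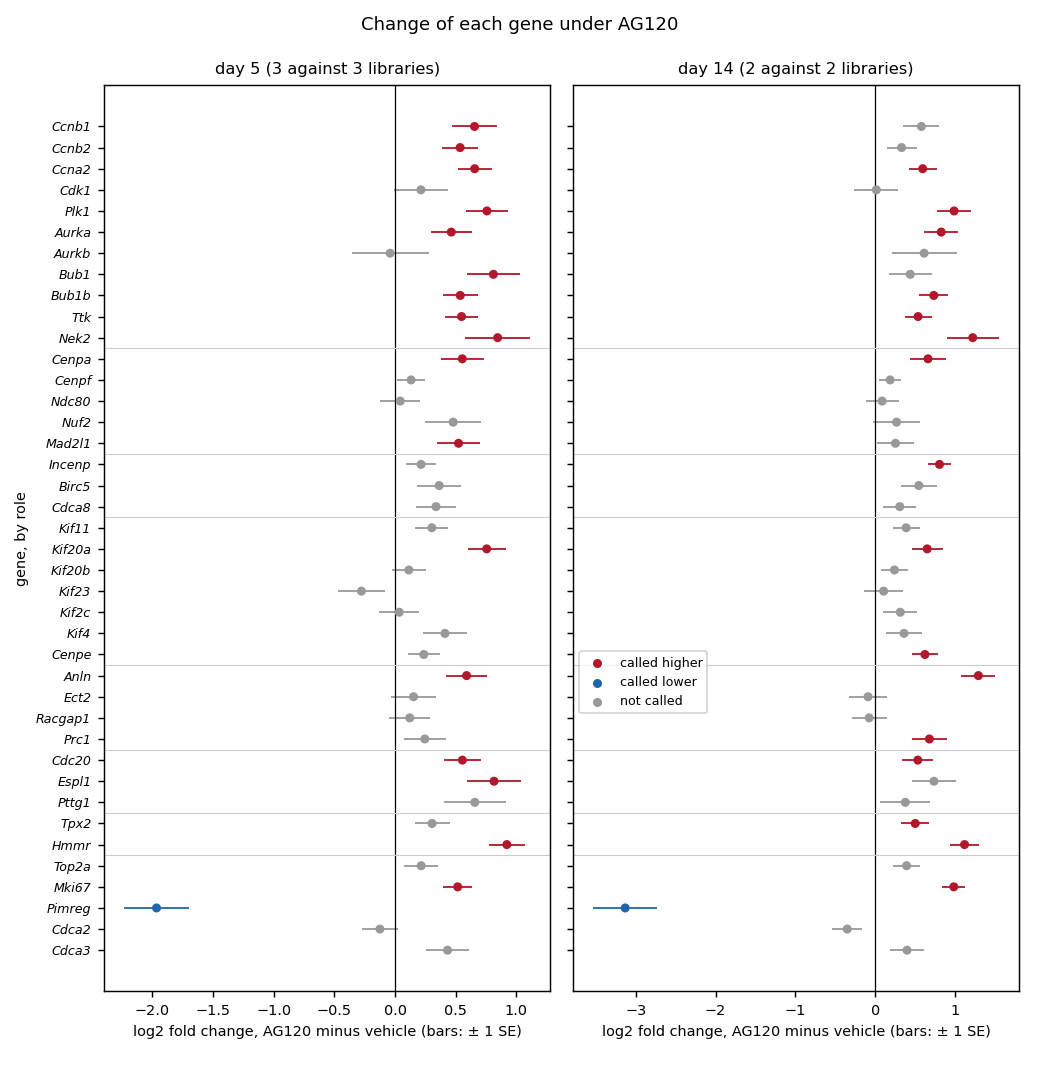
Log2 fold change of each of the 40 genes with AG120 against vehicle (points, bars ± 1 SE) on day 5 (left, 3 against 3 libraries) and day 14 (right, 2 against 2 libraries), grouped by role. Red marks the 17 and 16 genes called higher, blue the 1 called lower on each day (Pimreg), grey those not called.

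**Figure D3:**
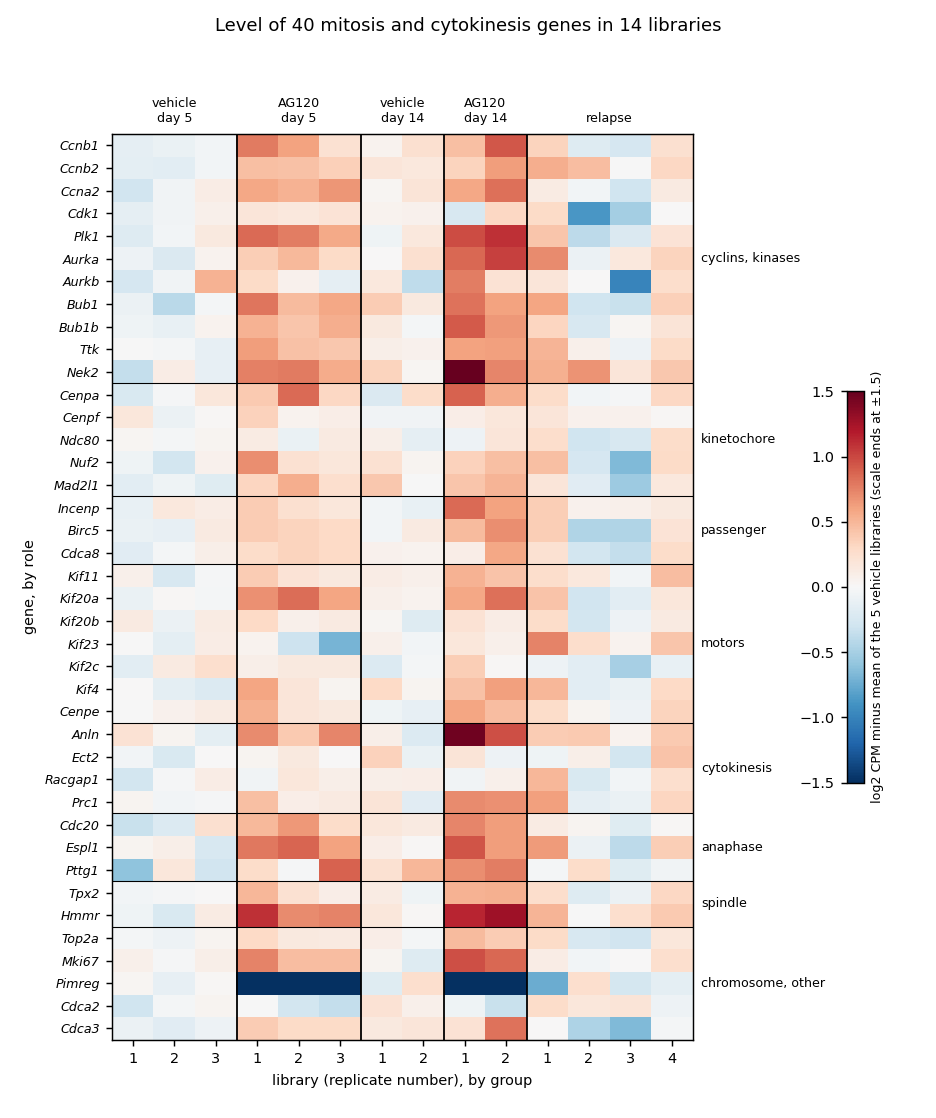
Level of each gene in each of the 14 libraries, as log2 CPM minus the mean of the 5 vehicle libraries, with the color scale ending at ±1.5. The AG120 columns are red for most rows and dark blue for Pimreg, and in most rows relapse replicates 2 and 3 are paler or bluer than replicates 1 and 4.

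The cyclins and kinases hold genes for entry into mitosis and also the checkpoint kinases Bub1, Bub1b and Ttk. On day 5, 9 of 11 were higher (81.8%, against 20.1% of all genes), and on day 14, 6 of 11 (54.5% against 16.8%). Their summed level rose from 277 to 317 CPM with vehicle to 411 to 453 CPM with AG120 on day 5, and from 320 to 332 to 468 to 512 CPM on day 14. Plk1, the Polo kinase, was at 48.6, 53.8 and 61.5 CPM with vehicle and 99.96, 94.9 and 82.4 CPM with AG120 on day 5. On day 14 it was at 53.0 and 62.1 CPM against 109.5 and 118.9 CPM. The groups did not overlap on either day, and the change was 0.76 ± 0.17 on day 5 (adjusted p = 0.00245) and 0.99 ± 0.21 on day 14 (adjusted p = 0.0019).

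Cyclin A2 and the B cyclins are the regulatory partners that turn on Cdk1. Ccna2 was at 32.5, 38.0 and 42.8 CPM with vehicle and 59.1, 56.8 and 62.9 CPM with AG120 on day 5, a change of 0.66 ± 0.14 (adjusted p = 0.00142). Ccnb1 changed by 0.66 ± 0.18 on day 5 (adjusted p = 0.00909; 0.0564 without AG120 replicate 1), and by 0.58 ± 0.23 on day 14, which was not called (adjusted p = 0.0567). Ccnb2 rose by 0.54 ± 0.15 on day 5 (adjusted p = 0.00944). The kinase itself did not pass the test: Cdk1 was at 58.4, 61.6 and 67.7 CPM with vehicle and 72.5, 71.4 and 73.8 CPM with AG120 on day 5, a difference of 0.21 ± 0.22 (adjusted p = 0.477) although the groups did not overlap. On day 14 Cdk1 was at 66.4 and 66.8 CPM with vehicle and at 54.3 and 79.5 CPM with AG120, so the treated libraries lay on both sides of the vehicle ones.

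The checkpoint kinases Bub1, Bub1b and Ttk all rose on day 5. Ttk, which starts checkpoint signalling at unattached kinetochores, was at 42.0, 41.3 and 38.8 CPM with vehicle and 65.4, 57.1 and 56.1 CPM with AG120, a change of 0.55 ± 0.14 (adjusted p = 0.00459). Bub1b was at 21.1, 20.3 and 22.9 CPM against 31.7, 29.4 and 32.3 CPM, with a change of 0.54 ± 0.14 on day 5 and 0.73 ± 0.18 on day 14 (adjusted p = 0.0074 and 0.00464; the latter up to 0.0562 without vehicle replicate 2 or AG120 replicate 1). Bub1 changed by 0.81 ± 0.22 on day 5 (adjusted p = 0.00689) and by 0.44 ± 0.27 on day 14 (adjusted p = 0.219). In these 3 genes no treated library fell to the vehicle level on either day.

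Aurka, the spindle pole Aurora kinase, changed by 0.46 ± 0.17 on day 5 (adjusted p = 0.0397) and 0.83 ± 0.21 on day 14 (adjusted p = 0.00579). The day 5 call was lost in 10 of 13 alternative fits, among them those without any one of the 6 libraries, up to an adjusted p of 0.14. The day 14 call was lost without vehicle replicate 1 or AG120 replicate 2 (adjusted p up to 0.069). Aurkb, the Aurora kinase of centromeres and the midzone, was at 4.13, 4.75 and 7.26 CPM with vehicle and 6.09, 5.21 and 4.47 CPM with AG120 on day 5, and the groups overlapped (-0.04 ± 0.32). Nek2, which splits the centrosomes, had the largest day 14 change of the kinases, 1.22 ± 0.33 (adjusted p = 0.00828). It rested on AG120 replicate 1, which was at 17.01 CPM while replicate 2 was at 7.61 CPM and the vehicle libraries at 5.71 and 4.56 CPM. Without that library the Nek2 change was 0.57 (adjusted p = 0.225). On day 5 Nek2 changed by 0.85 ± 0.27 (adjusted p = 0.019), with 3.417, 4.86 and 4.07 CPM against 7.77, 7.90 and 6.71 CPM, and this call too was lost without vehicle replicate 1 or 3 or AG120 replicate 1 or 2 (adjusted p up to 0.0729).

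Of the 5 kinetochore and checkpoint genes, 2 were higher on day 5 and 1 on day 14. That is 40% on day 5, against 20.1% of all genes, and 20% on day 14, near the 16.8% of all genes. Cenpa, the histone H3 variant that marks centromeres, was at 21.4, 24.8 and 28.0 CPM with vehicle and 32.9, 45.4 and 31.0 CPM with AG120 on day 5 (0.55 ± 0.18, adjusted p = 0.0212). It changed by 0.66 ± 0.22 on day 14 (adjusted p = 0.0298, up to 0.263 without vehicle replicate 1 or AG120 replicate 1). Mad2l1, the checkpoint protein that binds Cdc20, changed by 0.52 ± 0.18 on day 5 (adjusted p = 0.0295) and 0.25 ± 0.23 on day 14. Genes of the microtubule-binding Ndc80 complex were called on neither day. Ndc80 was at 25.1, 24.1 and 25.3 CPM with vehicle and 26.8, 22.8 and 27.0 CPM with AG120 on day 5, and the groups overlapped (0.04 ± 0.16 on day 5, 0.09 ± 0.21 on day 14). Its partner Nuf2 differed by 0.48 ± 0.23 and 0.27 ± 0.29, neither called. Cenpf, a large outer kinetochore protein, lay between 94.9 and 128.9 CPM in all 6 day 5 libraries (0.13 ± 0.11). Without single libraries both day 5 calls were lost: Cenpa without vehicle replicate 1, vehicle replicate 2 or AG120 replicate 2 (adjusted p up to 0.142), and Mad2l1 without any one of 5 libraries or with DESeq2 (adjusted p up to 0.118).

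The chromosomal passenger complex takes Aurkb to centromeres and then to the midzone. None of its 3 other subunits was called on day 5, and 1 was on day 14 (33.3%, against 16.8% of all genes). Incenp, the scaffold, was at 108.3 and 102.7 CPM with vehicle and 199.99 and 169.3 CPM with AG120 on day 14, a change of 0.81 ± 0.15 (adjusted p = 0.000498). On day 5 Incenp differed by 0.21 ± 0.12 (adjusted p = 0.168). Birc5 (survivin) differed by 0.36 ± 0.18 and 0.55 ± 0.23 and Cdca8 (borealin) by 0.34 ± 0.17 and 0.31 ± 0.20. For all 3 genes every treated library lay above every vehicle library on both days, although 5 of these 6 differences were not called.

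The 7 motors are the kinesins that sort and move chromosomes. On day 5, 1 was higher (14.3%, under the 20.1% of all genes), and on day 14, 2 were (28.6% against 16.8%). Kif20a, the kinesin that carries the passenger complex to the midzone, was at 26.9, 29.3 and 28.3 CPM with vehicle and 46.8, 52.1 and 43.9 CPM with AG120 on day 5 (0.76 ± 0.16, adjusted p = 0.00116). On day 14 Kif20a changed by 0.65 ± 0.20 (adjusted p = 0.0163, up to 0.149 without either vehicle replicate or AG120 replicate 2). Cenpe, which walks chromosomes to the metaphase plate, was called on day 14 only, at 99.9 and 95.2 CPM against 157.3 and 143.5 CPM (0.62 ± 0.16, adjusted p = 0.00702, up to 0.0605 without vehicle replicate 2 or AG120 replicate 1). Kif11, which pushes the spindle poles apart, differed by 0.30 ± 0.14 and 0.39 ± 0.17, and Kif4, a chromosome arm kinesin, by 0.41 ± 0.18 and 0.36 ± 0.23, neither called. Kif2c, which takes microtubule ends apart, and Kif20b overlapped between the day 5 groups. Kif23, the motor of the centralspindlin complex, was the only motor with a negative day 5 difference: 17.9, 16.2 and 19.5 CPM with vehicle against 18.7, 14.4 and 11.02 CPM with AG120 (-0.28 ± 0.19, adjusted p = 0.27). The treated libraries lay on both sides of the lowest vehicle one.

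Of the 4 cytokinesis genes, 1 was higher on day 5 (25%, near the 20.1% of all genes) and 2 on day 14 (50% against 16.8%). Anln (anillin), the scaffold of the contractile ring, was at 15.1, 13.4 and 11.7 CPM with vehicle and 21.3, 17.1 and 21.7 CPM with AG120 on day 5. On day 14 it was at 13.8 and 11.2 CPM against 36.1 and 25.6 CPM, the largest rise of the 40 genes. The groups did not overlap on either day, with changes of 0.59 ± 0.17 (adjusted p = 0.0114) and 1.29 ± 0.21 (adjusted p = 0.000186), the latter 2.45-fold. Without vehicle replicate 3 or AG120 replicate 3 the day 5 call of Anln was lost (adjusted p up to 0.0597). Prc1, which bundles the microtubules of the central spindle, rose on day 14 only (0.68 ± 0.22, adjusted p = 0.0221), and that call was lost without vehicle replicate 2 or either AG120 replicate (adjusted p up to 0.2).

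Ect2 and Racgap1 form the module that switches on RhoA at the cell's equator, together with Kif23. Ect2 was at 12.4, 10.8 and 12.8 CPM with vehicle and 13.1, 14.1 and 12.8 CPM with AG120 on day 5 (0.15 ± 0.19), and differed by -0.09 ± 0.24 on day 14. Racgap1 was at 15.4, 18.3 and 20.1 CPM against 17.98, 21.001 and 19.8 CPM (0.12 ± 0.17), and differed by -0.08 ± 0.22 on day 14. In these 3 genes no difference passed the test on either day.

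Of the 3 anaphase genes, 2 were higher on day 5 (66.7%, against 20.1% of all genes) and 1 on day 14 (33.3% against 16.8%). Cdc20, the activator of the anaphase-promoting complex, was at 16.8, 18.5 and 25.2 CPM with vehicle and 30.02, 33.4 and 25.7 CPM with AG120 on day 5 (0.56 ± 0.16, adjusted p = 0.00944, up to 0.0543 without vehicle replicate 1 or AG120 replicate 2). It changed by 0.53 ± 0.19 on day 14, a call lost in 7 of 11 alternative fits and without any one of the 4 libraries (adjusted p = 0.0407, up to 0.186). Espl1, separase, was at 8.97, 9.28 and 7.37 CPM against 15.4, 16.3 and 13.4 CPM on day 5 (0.82 ± 0.22, adjusted p = 0.00746) and differed by 0.74 ± 0.28 on day 14 (adjusted p = 0.0511). Pttg1, securin, the inhibitor that separase is held by, was at 3.84, 6.74 and 4.84 CPM with vehicle and was not called on either day (0.66 ± 0.26, adjusted p = 0.0503 on day 5).

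Hmmr, a microtubule protein of the spindle poles that helps to place Tpx2, had the largest rise of the 40 genes on day 5. It was at 31.8, 28.3 and 36.2 CPM with vehicle and 71.5, 54.8 and 56.1 CPM with AG120, a change of 0.92 ± 0.15 (1.89-fold, adjusted p = 0.00015). On day 14 it was at 37.5 and 33.6 CPM against 73.7 and 80.7 CPM (1.12 ± 0.19, 2.174-fold, adjusted p = 0.000202). The lowest treated library was well above the highest vehicle library on both days. Tpx2, which activates Aurka on spindle microtubules, differed by 0.31 ± 0.14 on day 5 (adjusted p = 0.104). On day 14 Tpx2 was at 58.2 and 51.1 CPM against 77.3 and 77.5 CPM (0.50 ± 0.18, adjusted p = 0.038), and without any one of the 4 libraries it was not called (adjusted p up to 0.22).

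Mki67, the proliferation antigen that coats mitotic chromosomes, was at 273.9, 256.7 and 277.05 CPM with vehicle and 437.2, 359.2 and 358.99 CPM with AG120 on day 5. On day 14 it was at 268.4 and 226.4 CPM against 507.7 and 472.4 CPM. The groups were far apart, and the change was 0.52 ± 0.12 on day 5 (1.43-fold, adjusted p = 0.00235) and 0.99 ± 0.15 on day 14 (1.98-fold, adjusted p = 6.25e-05). Top2a, the topoisomerase that untangles sister chromatids, was not called on either day, although every treated library was above every vehicle library (0.22 ± 0.14 and 0.39 ± 0.17, adjusted p = 0.232 and 0.0843). Cdca3, which helps to remove the kinase Wee1, differed by 0.43 ± 0.18 on day 5 (adjusted p = 0.0591). Cdca2, which brings a phosphatase to chromosomes, differed by -0.12 ± 0.15 and -0.35 ± 0.19, neither called.

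Pimreg, a mitotic regulator that binds the clathrin assembly protein Picalm, was the 1 member called lower, on both days. It lies on chromosome 11 from 72042032 to 72047370 (GRCm38, plus strand). It was at 11.5, 10.4 and 11.4 CPM with vehicle and 1.98, 3.36 and 3.19 CPM with AG120 on day 5, and at 9.96 and 13.5 CPM against 1.49 and 1.201 CPM on day 14. These levels stand for 81 to 104 counts per library with vehicle and 13 to 20 with AG120 on day 5, and for 5 and 6 counts with AG120 on day 14. The groups were far apart, with a change of -1.97 ± 0.27 on day 5 (3.90-fold lower, adjusted p = 2.46e-05) and -3.13 ± 0.40 on day 14 (8.78-fold lower, adjusted p = 1.57e-05). In relapse Pimreg was at 6.61, 13.5, 9.36 and 10.2 CPM, all above every AG120 library.

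**Figure D4:**
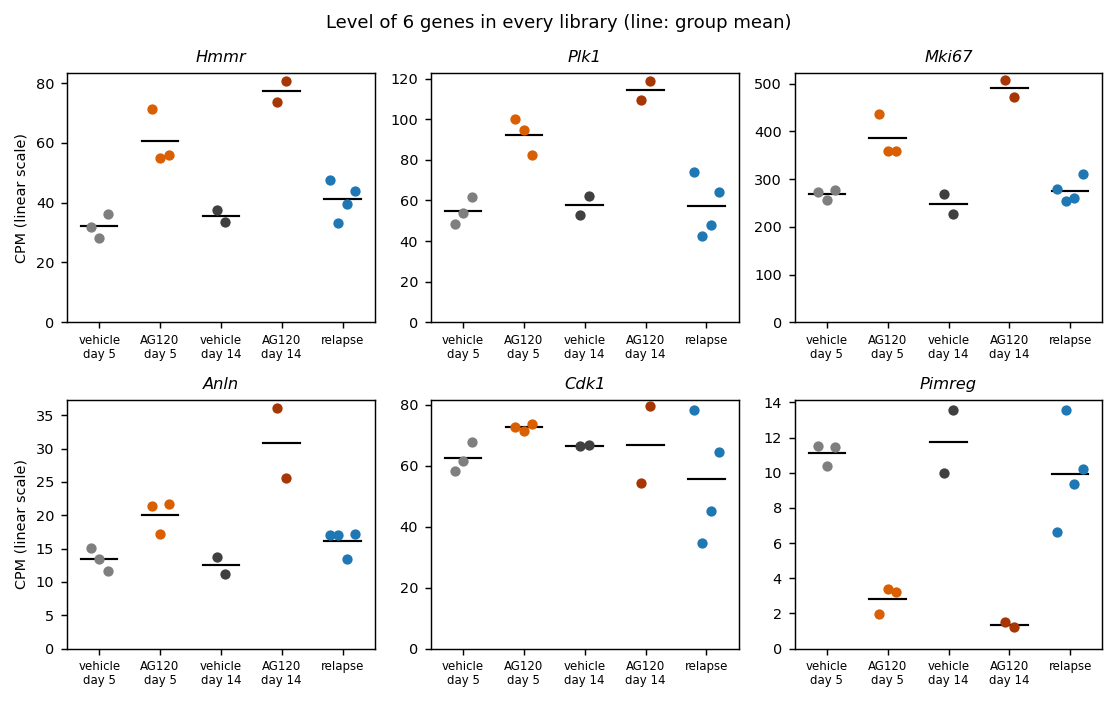
CPM of Hmmr, Plk1, Mki67, Anln, Cdk1 and Pimreg in every library (points) with the group mean (line), on linear axes from 0. Hmmr, Plk1, Mki67 and Anln are higher in both AG120 groups and near the vehicle level in relapse, Cdk1 is close to vehicle on day 5 without overlapping it and overlaps it on day 14, and Pimreg is at 1.201 to 3.36 CPM only under AG120.

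The responses on day 14 and day 5 differed for none of the members in the fit over all 14 libraries, but for 2 in a fit of only the groups compared. The change on day 14 minus the change on day 5 was called for 0 of 40 members by edgeR, DESeq2 and limma-voom on all libraries. Of all genes, edgeR called 0.934%. At an unadjusted edgeR p under 0.05 were 4 of the 40 members and 1482 of all 11994 genes. Anln (0.70 ± 0.27, adjusted p = 0.279), Incenp (0.59 ± 0.19, adjusted p = 0.185) and Mki67 (0.47 ± 0.19, adjusted p = 0.296) had larger rises on day 14, and Pimreg a deeper fall (-1.17 ± 0.51, adjusted p = 0.361). Comparing the AG120 groups directly, the members were 0.19 higher at the median on day 14, against -0.05 for all genes. Of the 40, 0 were called by edgeR, 1 by DESeq2 and 0 by limma-voom. Of all genes, edgeR called 4.1% (1.75% higher and 2.35% lower). At an unadjusted edgeR p under 0.05 were 7 of the 40 members and 2174 of all 11994 genes, a like share. Fitted on only the groups compared, edgeR called Incenp (adjusted p = 0.00743) and Mki67 (adjusted p = 0.0276) for the difference between the days, and Aurka, Incenp, Anln, Prc1 and Mki67 higher in AG120 day 14 than in AG120 day 5. Calls over all genes rose in these fits as well. They were 869 for the difference between the days, against 112 in the fit over all 14 libraries. Between the AG120 groups they were 1448, against 492. The 2 vehicle groups, 5 and 14 days, differed for 0 of 40 members with edgeR, DESeq2 and limma-voom, and 0% of all genes were called. At an unadjusted edgeR p under 0.05 were 0 of the 40 members and 574 of all 11994 genes.

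In relapse no mitosis gene was called different from vehicle. Against the mean of both vehicle groups 0 of 40 were called by edgeR, DESeq2 and limma-voom. Of all genes, edgeR called 0.183% (0.1% higher, 0.0834% lower). At an unadjusted edgeR p under 0.05 were 4 of the 40 members and 1389 of all 11994 genes. The median difference was 0.08, the range -0.29 (Cdca3) to 0.43 (Nek2), and all 4 relapse libraries lay above all 5 vehicle libraries for 0 members (1.98% of all genes) and below them for 0 (1.97%). The summed level of the 40 genes was 2617 CPM in relapse replicate 1, 1938 in replicate 2, 1911 in replicate 3 and 2466 in replicate 4, around vehicle values of 2048 to 2223 CPM. It was 2543 to 2915 CPM with AG120 on day 5 and 3147 to 3165 CPM on day 14.

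**Figure D5:**
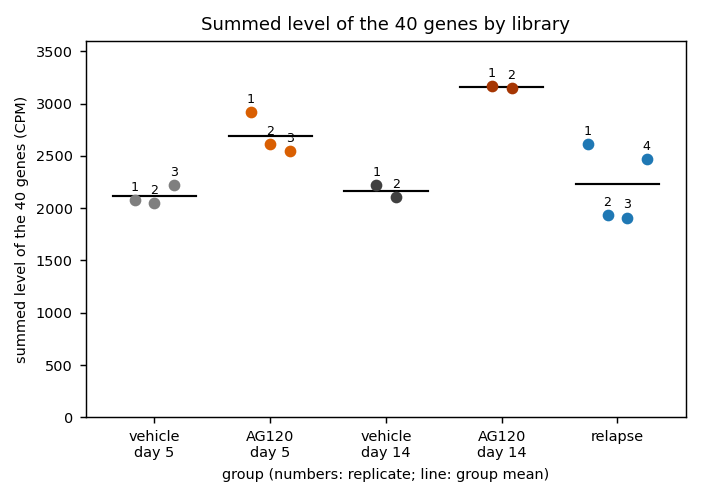
Summed level of the 40 genes in each library in CPM (points, numbered by replicate) with the group mean (line), on a linear axis from 0. The AG120 libraries lie between 2543 and 3165, the vehicle libraries between 2048 and 2223, and relapse replicates 1 and 4 lie above that vehicle range while replicates 2 and 3 lie below it.

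The 4 relapse mice were not alike in these genes. Replicate 1 was above the range of the 5 vehicle libraries for 30 of 40 members and replicate 4 for 25, while replicate 2 was below it for 12 and replicate 3 for 18. Over all genes tested each relapse library was above that range for 23.5% to 29.4% and below it for 24.3% to 29.97%. The 29.97% was in replicate 2, so its 12 members below the range are the share of all genes. In replicate 3 it was 25.2% of all genes. Replicate 3 was the lowest relapse library for 22 members and replicate 2 for 15, and replicate 1 was the highest for 26 and replicate 4 for 11. Over all genes tested each relapse library was the lowest for 20.9% to 30.4% and the highest for 22.3% to 29.2%. Cdk1 shows the split: it was at 78.2 and 64.4 CPM in replicates 1 and 4 and at 34.7 and 45.0 CPM in replicates 2 and 3. Birc5 was at 156.8 and 139.5 CPM against 88.9 and 88.9 CPM in the same order. The spread of the members in relapse (median SD 0.29 on the log2 scale) was wider than in the other groups (0.13 to 0.15), and so was that of all genes (0.32 against 0.15 to 0.21).

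Against the mean of both AG120 groups, 24 of the 40 genes were lower in relapse and 3 were higher, with a median of -0.37 against 0.01 for all genes. Over all genes 26.1% were called lower and 27.9% higher, 54% in either direction. Plk1 was at 74.1, 42.4, 47.7 and 64.0 CPM in relapse, all under every AG120 library (-0.85 ± 0.15, adjusted p = 0.000125). Hmmr was at 47.6, 33.1, 39.6 and 43.9 CPM (-0.74 ± 0.13, adjusted p = 0.000114) and Mki67 at 280.2, 253.6, 260.3 and 310.1 CPM (-0.65 ± 0.10, adjusted p = 3.3e-05), also below every AG120 library. By role, 8 of 11 cyclins and kinases fell, 2 of 5 kinetochore genes, all 3 passenger subunits and 2 of 7 motors. So did 1 of 4 cytokinesis genes, all 3 anaphase genes, both spindle assembly genes and 3 of 5 chromosome and regulator genes. The shares of the motors and of the cytokinesis genes lay near the 26.1% of all genes called lower. All 4 relapse libraries were below all 5 AG120 libraries for 10 members and above them for 1, Pimreg (18.9% and 18.3% of all genes).

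The 3 genes higher in relapse than with AG120 were Pimreg (2.35 ± 0.25, 5.09-fold, adjusted p = 8.15e-07), Kif23 (0.47 ± 0.16, adjusted p = 0.0194) and Cdca2 (0.35 ± 0.13, adjusted p = 0.0269). Kif23 was at 30.4, 21.7, 18.7 and 24.1 CPM in relapse, and without relapse replicate 1 its difference from AG120 was 0.34 (adjusted p = 0.073), and without AG120 day 14 replicate 2 it was 0.45 (adjusted p = 0.0679). The Cdca2 call was lost without any one of 5 libraries (adjusted p up to 0.129). The count of 27 calls moved with the relapse library left out: it was 17 without replicate 3, 19 without replicate 2, 25 without replicate 4 and 30 without replicate 1. Over all genes 6079, 6043, 6442 and 6514 were called in the same order, against 6481. The member count moved with the processing too: it was 18 with no filter or only the groups compared, and 22 with RLE scaling or without ribosomal RNA genes. Over all genes these fits called 6528, 5614, 6423 and 6438. Leaving out AG120 day 14 replicate 2 gave 18 (5579 of all genes). The 12 genes called in every fit were Anln, Bub1b, Ccna2, Ccnb1, Cdc20, Cdca3, Hmmr, Kif20a, Mad2l1, Mki67, Pimreg and Plk1. This comparison and those of AG120 with vehicle share the AG120 libraries, so the falls in relapse are not a second measurement of the rises.

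Other genes of the mitotic machinery, 125 from 7 lists, were called higher about as often as genes in general on day 5. They were called lower less often on both days. Their change was above 0 for 97 on day 5 and 102 on day 14, against 5993 and 5954 of all 11994 genes. On day 5, 27 were higher and 6 lower (21.6% higher, against 20.1% of all genes; median 0.22), and on day 14, 28 and 4 (22.4% against 16.8%; median 0.27). The counts of the single lists that follow are to be read against these shares of all genes, with 19.3% and 17.9% lower. Of 33 other kinetochore genes 7 rose on each day (21.2%, near the share of all genes) and 0 fell. Knl1, the kinetochore platform for the checkpoint, was at 41.8 to 47.5 CPM with vehicle and 77.96 to 83.96 CPM with AG120 on day 5 (0.86 ± 0.13, adjusted p = 9.01e-05) and changed by 0.92 ± 0.17 on day 14. Of 16 condensin and cohesin genes 4 rose on day 5 (25%) and 7 on day 14 (43.8%). Smc2, a condensin core subunit, was at 149.8 and 166.7 CPM with vehicle and 296.4 and 310.4 CPM with AG120 on day 14 (0.94 ± 0.15, adjusted p = 0.000162).

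Of 18 genes of the anaphase-promoting complex and its partners 5 rose on day 5 (27.8%), among them the ubiquitin-conjugating enzyme Ube2c (0.65 ± 0.17), and 2 on day 14 (11.1%, under the 16.8% of all genes). Of 10 genes that control Cdk1, 3 rose (30%) and 2 fell on day 5. Cks2, a small subunit that binds Cdk1, rose by 0.96 ± 0.20 and Ensa, which inhibits the phosphatase that opposes Cdk1, fell by 0.73 (SE 0.21). Of 25 other spindle and centrosome genes 5 rose (20%, the share of all genes) and 1 fell on day 5, and 7 rose on day 14 (28%), such as the kinesin Kif14 (1.02 ± 0.16, adjusted p = 9.78e-05).

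Of the 8 other cytokinesis genes 1 was lower on day 5, and 1 was higher and 1 lower on day 14. Cep55, which recruits the machinery of the final cut, was at 6.26 to 10.4 CPM with vehicle and 3.83 to 5.79 CPM with AG120 on day 5. On day 14 it was at 12.2 and 13.4 CPM against 0.895 and 1.40 CPM, the lower of which is the level that 3 counts give in that library. The changes were -0.84 ± 0.29 (adjusted p = 0.0296) and -3.40 ± 0.47 (adjusted p = 3.6e-05). In relapse it was at 6.60 to 14.3 CPM. Its neighbour in the pathway Cit, citron kinase, rose on day 14 (0.85 ± 0.19, adjusted p = 0.00259).

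Regulators of the CHR and CCAAT promoter elements were called no more often than genes in general: 3 of 15 rose (20%, against 20.1% of all genes) and 2 fell on day 5, and 2 rose (13.3% against 16.8%) and 2 fell on day 14. E2f4, the E2F of the DREAM complex, was at 4.41 to 7.92 CPM with vehicle and 14.0 to 17.1 CPM with AG120 on day 5, a change of 1.38 ± 0.21 (adjusted p = 8.99e-05), and it changed by 1.64 ± 0.26 on day 14. Rbl2, the pocket protein p130 of the same complex, fell, from 14.5 to 18.01 CPM to 8.46 to 11.7 CPM on day 5 (-0.68 ± 0.19, adjusted p = 0.01), with -1.10 ± 0.26 on day 14. Mybl2, the activator that replaces them, rose by 0.64 ± 0.18 and 1.08 ± 0.23. Nfya, a subunit of NF-Y, fell by 0.69 and 0.82 (SE 0.20 and 0.26). Among the 46 DNA replication genes, which act in the phase before mitosis, 20 rose and 1 fell on day 5 (43.5% higher, against 20.1% of all genes) and 21 rose and 1 fell on day 14 (45.7% against 16.8%). Orc2, of the origin recognition complex, rose by 1.15 ± 0.17 on day 5. In relapse 37 of the 46 were lower than with AG120, against 26.1% of all genes.

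Markers of blood cell types moved with AG120 as well, and their part in the mitotic gene results was not tested. The summed level of 16 erythroid genes was 74.3 to 124.8 CPM with vehicle and 733.7 to 834.0 CPM with AG120 on day 5. On day 14 it was 106.1 to 132.7 against 1541 to 1741 CPM. Of the 16, 11 and 15 were called higher on day 5 and day 14, against 20.1% and 16.8% of all genes. The erythroid sum under AG120 thus lay above that of vehicle on both days. In relapse the erythroid sum was 64.2 to 315.6 CPM. The sum of 9 neutrophil genes was 585.2 to 775.8 CPM with vehicle and 122.6 to 209.0 CPM with AG120 on day 5. On day 14 it was 980.8 to 1195 against 1301 to 1696 CPM, and in relapse 260.2 to 1291 CPM. Of the 9, 3 were called lower on day 5 and 1 on day 14, and 0 higher on either day. In the AG120 day 14 libraries S100a8 alone was at 607.7 to 866.9 CPM. Cxcr2 was at 3.58 to 6.40 CPM there, against 27.9 to 29.9 CPM with vehicle. The sum of 6 megakaryocyte genes was 250.9 to 309.5 CPM with vehicle and 32.9 to 54.2 CPM with AG120 on day 5. On day 14 it was 219.8 to 248.1 against 64.2 to 73.7 CPM, and in relapse 78.02 to 274.9 CPM. Most of this sum was Itga2b, which alone was at 213.7 to 262.8 CPM with vehicle and 27.5 to 48.5 CPM with AG120 on day 5. Of the 5 megakaryocyte genes that passed the filter 4 were called lower on day 5, and 1 lower and 1 higher on day 14. The sum of 9 monocyte genes was 12.6 to 15.0 CPM with AG120 on day 5 and 23.8 to 39.3 CPM in the other groups. Cells of other origins were hardly seen: 6 B cell genes summed to at most 3.97 CPM, 7 T and NK cell genes to at most 2.06 CPM and 6 genes of stroma and endothelium to at most 1.79 CPM. Cd3e and Cdh5 were among the genes at 0 in most groups. Kit was called lower on day 14 (-1.63 ± 0.49, adjusted p = 0.022), and Cd34, a stem and progenitor antigen, on both days (-3.78 ± 0.17 and -4.77 ± 0.23).

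Some counts may be shared with neighbours, since the labels and notes do not say whether counting used strand. The 3′ ends of 4 members lie inside another coding gene: Ccna2 in Exosc9, Kif20a in Cdc23, Prc1 in Rccd1 and Cdc20 in Elovl1. Cdc23 was itself called higher on day 5 (0.60 ± 0.16, adjusted p = 0.00566). The processed copies of Ccnb1 and Kif4 that the annotation names had 0 counts in all libraries, and that of Ccnb2 had 26 in all. How reads that match both a gene and its copy were counted is not known.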

How the data were processed

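The 14 libraries were made with the QuantSeq 3′ mRNA kit, per the labels' protocols. What the authors deposited is a single count table, raw and unnormalized, in which 52636 Ensembl identifiers are rows. Tools named in the submitters' processing notes are HISAT2 2.1.0, Subread 1.6.3, featureCounts, cutadapt 1.14, bcl2fastq 2.17.1.14, R 3.6.2, edgeR 3.28.1 and limma 3.42.2, and the genome build named there is mm10. No source used here states the strand setting, the handling of reads with several matches or the use of molecular identifiers. Replicates are separate mice, as the labels say that cells were sorted per mouse. Symbols came from a gene annotation by identifier, which named 52403 of them.

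The counts were fitted with edgeR 4.0.16 in R 4.3.3 (filterByExpr, minimum count 10; TMM; robust quasi-likelihood fit over all 14 libraries, 9 residual degrees of freedom, common dispersion 0.0291), with Benjamini-Hochberg adjustment over 11994 genes. The code was tested on simulated data. CPM use library sizes that include ribosomal RNA, so a gene at 0 could be at up to 0.330 to 0.895 CPM (3 counts, counting error only). Alternatives were RLE scaling, no filter, a replicate block, ribosomal RNA genes left out, fits of only the groups compared, DESeq2 1.42.0, limma-voom (limma 3.58.1) and leaving out each library. All 40 members could be named; of each other list, per comparison, up to 3 called genes with the highest and 3 with the lowest changes. The members, lists, markers and tests were chosen with earlier results of these data known.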

Additional observations from a re-analysis of the deposited data

Results flagged for a closer look

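Anln, the scaffold of the contractile ring, was lower in 1 of the 4 relapse libraries than in the rest: relapse replicate 3 was at 13.5 CPM and the other 3 at 17.002 to 17.1 CPM, a gap of 0.96 of the whole range. Chance alone sets about 1 in 20 such groups apart, and 41 sets of relapse values were looked at.

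Cep55, which acts at the final cut between daughter cells, responded differently to AG120 on the 2 days. Its day 14 change minus its day 5 change was -2.57 ± 0.58 on the log2 scale (edgeR's quasi-likelihood test of the interaction, adjusted p = 0.0445), with 0.895 and 1.40 CPM in the AG120 day 14 libraries and 3.83 to 5.79 CPM in the AG120 day 5 libraries.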

How the results depend on the processing

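No call changed sign under any alternative, and 192 values that were never called changed sign without a call. On day 5 the count of called members was 29 with only the groups compared, against 18, and 13 to 16 without 1 library. Over all genes these fits called 6186, 4730 and 3716 to 3873. On day 14 the count of called members was 13 with no filter, 21 with only the groups compared and 9 to 10 without 1 library, against 17. Over all genes it was 3980, 4888 and 2752 to 3003, against 4159. The day 14 change minus the day 5 change gave 2 calls with only the groups compared, against 0 (869 of all genes, against 112). AG120 day 14 against AG120 day 5 gave 1 call with RLE scaling, 1 with ribosomal RNA genes left out, 1 with DESeq2, 5 with only the groups compared, and 0 to 1 without 1 library, against 0. Over all genes these fits called 518, 511, 569, 1448 and 137 to 317, against 492. Relapse against AG120 gave 17 to 30 calls without 1 library, against 27 (5579 to 6514 of all genes, against 6481). It gave 18 with no filter, 18 with only the groups compared, 22 with RLE scaling and 22 with ribosomal RNA genes left out (6528, 5614, 6423 and 6438 of all genes). With DESeq2 it gave 23 and with limma-voom 28 (6172 and 6130 of all genes). The cause of these differences was not tested. The relapse comparison with vehicle and that of the vehicle groups stayed at 0 calls among the members in every fit. Whether replicate numbers pair the mice was not settled. Of 23 same-numbered pairs of libraries 2 correlated above 0.1 (-0.21 to 0.11), and 4 of 6 day 5 libraries correlated best with their own number. The 3 same-numbered day 5 pairs were at 0.107, 0.049 and 0.017. In groups of 2 the deviations from the group mean mirror each other, so such pairs can say little. With the replicate block the counts were 17 on day 5, 17 on day 14, 0 for their difference, 0 between the AG120 groups, 0 for relapse against vehicle, 25 for relapse against AG120 and 0 between the vehicle groups. Over all genes they were 4677, 4129, 108, 425, 16, 6167 and 0 in the same order. The usable depth of 1259982 to 3358874 counts and the 2 libraries per group on day 14 limit the precision. In simulated counts with these groups and depths, 13.4% of 1.5-fold and 61.2% of 2-fold changes were called on day 5. On day 14 it was 2.99% and 23.9%. Only 67 genes were changed at each of these folds, far fewer than were called here, so these shares do not carry over directly. A gene not called may still have changed, and how many calls were missed in the real counts was not tested.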
